A study of Mus musculus with 4 samples.

Results

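Kinesins are motor proteins that walk along microtubules or shorten their ends. The 38 genes described here are all the genes whose symbol is Kif, a number and at most one letter from a to c, out of 55335 genes in the count matrix. By their best known roles, 13 were taken as spindle kinesins, 17 as transport and neuronal kinesins, and 8 as ciliary and other kinesins. RNA was read in Smart-Seq2 libraries, which amplify full-length cDNA from very little RNA, from oocytes of C57BL/6 mice. There were 2 libraries labelled mutant and 2 labelled control, and all 4 descriptions carry the prefix MII, which the labels do not spell out. The mice described for the series carry a point change at an alternative splice site in exon 3 of *Ezh2*, the gene of the histone H3 lysine 27 methyltransferase, in an Ezh2Long and an Ezh2Short version. The mutant label does not say which version the oocytes carried, and no age is given. No label ties a library to an animal, so each p-value speaks of the spread among these libraries alone, which may be technical.

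An oocyte divides on a spindle that forms without centrioles, and spindle kinesins slide its microtubules apart, trim their ends, align chromosomes and build the midzone at which the polar body is cut off. Transport kinesins carry mitochondria, vesicles and RNA, and have been studied most in neurons, where cargo must travel along the axon. Kinesin-1 is a pair of heavy chains (Kif5a, Kif5b or Kif5c) with light chains, and the main form of kinesin-2 joins Kif3a to Kif3b or Kif3c and to the adaptor Kifap3.

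The 2 mutant libraries held 26575938 and 26587327 counts, and the 2 control libraries 26617816 and 25090032. Kinesin genes took 0.386% and 0.426% of the counts in mutants 1 and 2, against 0.384% and 0.373% in controls 1 and 2. All 12 oocyte markers were above 1 TPM (the deposited level per transcript length) in 3 libraries and 11 of 12 in mutant 2, and their sums were 16789 and 16864 TPM in mutants and 15908 and 15863 TPM in controls. Markers of 2 other cell types varied between the libraries. Of 20 cumulus and granulosa markers, 15 and 5 were above 1 TPM in mutants 1 and 2, and 8 and 3 in controls 1 and 2, with sums of 1796 and 1547 TPM in mutants and 1229 and 1108 TPM in controls. Those at 0 counts numbered 1 and 5 in the mutants and 4 and 10 in the controls. Of 20 leukocyte markers, 5 and 14 were above 1 TPM in the mutants and 2 and 2 in the controls, with sums of 25.8 and 280 TPM in the mutants and 8.91 and 10.1 TPM in the controls. Those at 0 counts numbered 7 and 1 in the mutants and 11 and 15 in the controls. The defining leukocyte gene *Ptprc* was at 0.107 and 43.2 CPM (library-scaled counts) in mutants 1 and 2 and at 0 counts in both controls. In such bulk samples fewer cells of a type and less RNA per cell cannot be told apart. The summed markers of both cell types were higher in both mutant libraries than in both control libraries. The number of cumulus and granulosa markers above 1 TPM overlapped between the groups, with 5 in mutant 2 and 8 in control 1. The part of either cell type in the kinesin values was not tested.

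The sequences around the start sites are shown for the most abundant spindle kinesins and for genes with the lowest adjusted p within the transport and the spindle class. *Kif17*, a transport kinesin whose adjusted p lay between those of *Kif1b* and *Kif11*, is not shown. RefSeq windows from 250 bases before to 50 bases after the start (GRCm38.p6) were held for 31 of the 38 genes; *Kif13b*, *Kif19a*, *Kif20a*, *Kif21b*, *Kif28*, *Kif5a* and *Kif5b* had no window. They were searched on both strands for TTTGAA, the letters of the cell cycle homology region (CHR), an element known from genes expressed in dividing cells, and for CCAAT, the CCAAT box. The 2 motifs cannot overlap in these letters except at single end bases. In the lines that follow, capitals mark every match, written as it stands on the gene's strand, so that TTCAAA and ATTGG are matches on the other strand.
Kif20b, the most abundant kinesin, chr19:34922108-34922407, plus strand: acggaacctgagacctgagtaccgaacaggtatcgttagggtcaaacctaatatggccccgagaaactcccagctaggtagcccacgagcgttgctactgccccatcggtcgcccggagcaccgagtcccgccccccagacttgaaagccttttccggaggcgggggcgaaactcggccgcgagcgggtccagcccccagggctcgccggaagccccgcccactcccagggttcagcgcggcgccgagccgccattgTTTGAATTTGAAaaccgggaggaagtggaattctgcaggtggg
Kif23, the second in level, chr9:61946750-61947049, minus strand: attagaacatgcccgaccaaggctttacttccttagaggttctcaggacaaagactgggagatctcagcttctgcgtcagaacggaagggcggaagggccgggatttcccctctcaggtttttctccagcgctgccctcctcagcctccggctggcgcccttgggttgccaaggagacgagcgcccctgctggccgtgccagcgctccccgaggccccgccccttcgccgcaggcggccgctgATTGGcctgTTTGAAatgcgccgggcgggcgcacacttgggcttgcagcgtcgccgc
Kif11, the spindle kinesin with the lowest adjusted p, chr19:37376132-37376431, plus strand: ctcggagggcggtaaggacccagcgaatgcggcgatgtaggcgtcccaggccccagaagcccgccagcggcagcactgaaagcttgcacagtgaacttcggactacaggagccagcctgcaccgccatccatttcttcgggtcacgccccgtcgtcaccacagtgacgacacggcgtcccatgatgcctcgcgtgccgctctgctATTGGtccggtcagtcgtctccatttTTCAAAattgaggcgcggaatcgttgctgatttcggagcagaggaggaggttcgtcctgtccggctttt
Kif5c, the transport kinesin that passed the test, chr2:49619036-49619335, plus strand: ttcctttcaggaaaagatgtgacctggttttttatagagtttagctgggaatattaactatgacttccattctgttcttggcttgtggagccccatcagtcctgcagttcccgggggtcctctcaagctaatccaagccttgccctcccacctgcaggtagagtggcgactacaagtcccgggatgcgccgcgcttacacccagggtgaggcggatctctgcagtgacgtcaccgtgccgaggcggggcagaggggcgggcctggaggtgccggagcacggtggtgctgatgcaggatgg
Kif1b, the transport kinesin with the next lowest adjusted p, chr4:149307649-149307948, minus strand: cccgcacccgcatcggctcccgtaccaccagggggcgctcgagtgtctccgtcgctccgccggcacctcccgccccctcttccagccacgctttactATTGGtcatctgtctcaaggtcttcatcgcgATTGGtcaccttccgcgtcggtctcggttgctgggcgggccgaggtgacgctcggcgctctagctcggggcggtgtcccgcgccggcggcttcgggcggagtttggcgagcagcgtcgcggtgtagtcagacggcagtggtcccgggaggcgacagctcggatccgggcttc
The *Kif20b* window held a tandem pair of CHR letters that begin 7 and 13 bases after the start. In *Kif23* a CCAAT match began 7 bases before the start and a CHR match 2 bases after it. In *Kif11* a CCAAT match began 45 bases and a CHR match 19 bases before the start. *Kif1b* held a pair of CCAAT matches, 153 and 122 bases before the start, and no CHR letters. Another *Kif1b* window, with a different start, had CCAAT matches 118 and 87 bases before it. *Kif5c* held neither motif, and nor did *Kif17*.

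CHR letters stood in the windows of 9 of 12 spindle kinesins (75%), of 2 of 13 transport and neuronal kinesins (15.4%) and of 1 of 6 others (16.7%). Over all 27025 genes with a window the share was 20.2%, where a gene counts if any of its windows holds the letters. The spindle kinesins without a match were *Kif18a*, *Kif2a* and *Kif2b*, and the transport kinesins with one were *Kif1a* and *Kif26b*, which had at most 21 and 33 counts in a library. The CCAAT box was in 7 of 12 spindle windows (58.3%), 4 of 13 transport windows (30.8%) and 3 of 6 other windows (50%), against 41.1% of all genes. Both motifs together were in 6 of 12 spindle windows (50%), 1 of 13 transport windows (7.69%) and 1 of 6 others (16.7%), against 8.97% of all. A window of 25 bases to either side of the start was chosen after the positions were seen, and CHR matches within it were found for 7 of 12 spindle kinesins (58.3%), 1 of 13 transport kinesins (7.69%) and 0 of 6 others, against 3.16% of all genes. These matches are letters, not shown to be bound, and the classes were chosen by function.

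**Figure D1:**
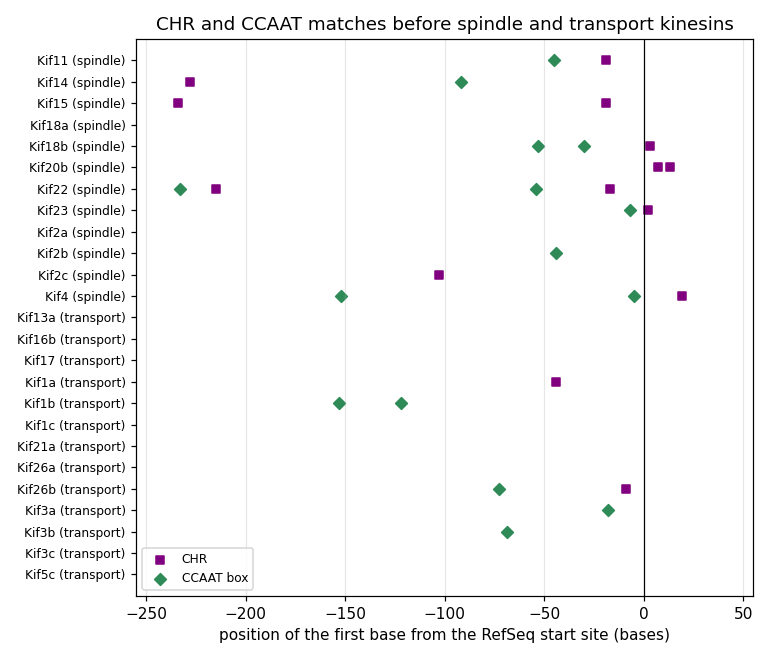
Positions of CHR (squares) and CCAAT box (diamonds) matches in 1 RefSeq window per gene, for the spindle and transport kinesins that had a window; the x axis is the distance of the first base from the start site in bases. CHR matches of spindle kinesins gather around the start, and most transport rows hold no square.

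Spindle kinesins made up most of the kinesin RNA in these oocytes. Levels are compared between genes only in TPM or in CPM per kilobase of the longest coding transcript. The 13 spindle genes summed to 1937 and 2243 TPM in mutants 1 and 2 and to 2121 and 2012 TPM in controls 1 and 2, which was 79.8% and 81.8% of all kinesin TPM in the mutants and 85.3% and 82.4% in the controls. The 17 transport and neuronal genes summed to 463 and 468 TPM in the mutants and 344 and 391.9 TPM in the controls, and the 8 others to 28.0 and 30.2 TPM in the mutants and 21.2 and 36.8 TPM in the controls. On the per-kilobase scale the mean spindle share was 81.7%, against 82.3% in TPM. A mean of at least 10 TPM was reached by 19 genes, of which 11 were spindle, 7 transport and 1 other. *Kif2b*, *Kif5a* and *Kif12* had 0 counts in all 4 libraries, where the limit of 3 counts corresponds to 0.107 and 0.113 CPM in the mutants and 0.121 and 0.119 CPM in the controls.

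**Figure D2:**
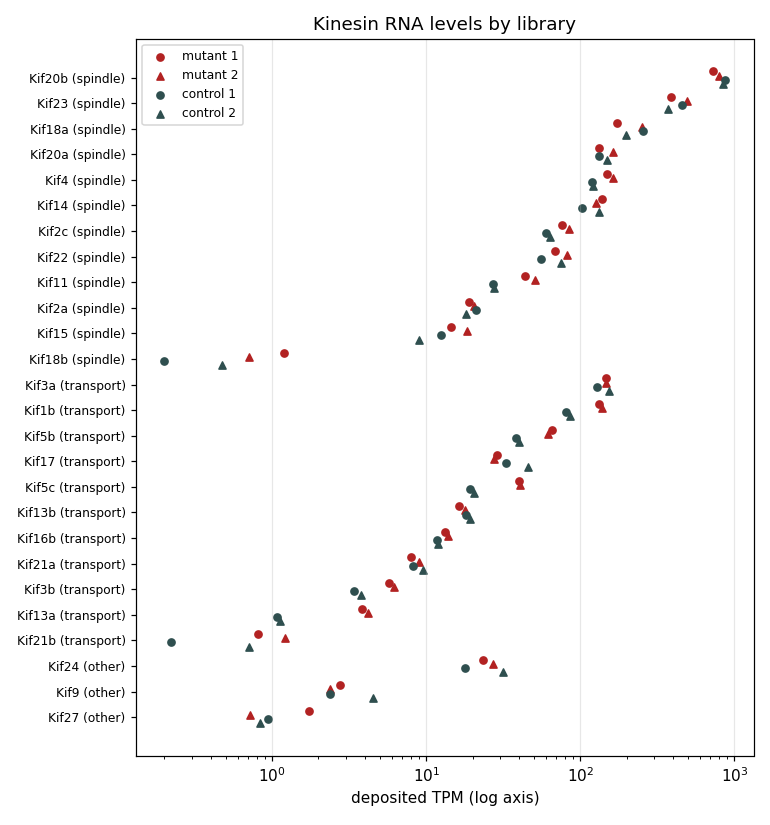
Deposited TPM of each kinesin gene with a mean of at least 0.5 TPM, on a log axis, with 1 point per library (red mutant, dark control; circle replicate 1, triangle replicate 2), ordered by class and level. The spindle genes run from Kif20b at 732 to 875 TPM down to Kif18b at 0.2 to 1.19 TPM, and the transport genes begin at Kif3a with 129 to 153 TPM.

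*Kif20b* (chr19:34922361-34975745, plus strand, GRCm38), whose protein acts in the last cut of cell division, was at 732 and 793 TPM in mutants and 875 and 847 TPM in controls. It took 30.2% and 28.9% of kinesin TPM in mutants and 35.2% and 34.7% in controls, so that its share was lower in both mutant libraries. Per kilobase of its longest transcript the shares were 19.6% and 21.3% in mutants and 24.6% and 22.2% in controls, in the same order. *Kif23* (chr9:61915905-61946774, minus strand), the motor of the centralspindlin complex, was at 388 and 492 TPM in mutants and 459 and 371 TPM in controls. *Kif18a* (chr2:109280738-109341747, plus strand), which damps the swings of aligned chromosomes, was at 174 and 250 TPM in mutants and 256 and 197 TPM in controls. By their means over the 4 libraries these 3 genes led on both per-length scales. Per kilobase *Kif4* was above *Kif18a* in mutant 1, at 80.9 against 71.6 CPM, and *Kif18a* above *Kif23* in control 1, at 125 against 112 CPM. The 3 genes together held 53.3% and 56.0% of kinesin TPM in mutants and 64.0% and 58.0% in controls. On the per-kilobase scale they held 41.2% and 44.9% in mutants and 51.3% and 44.6% in controls, and the groups overlapped.

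The next spindle genes lay close together. *Kif20a*, which brings the chromosomal passenger complex to the midzone, was at 132 and 163 TPM in mutants and 132 and 150 TPM in controls. *Kif4*, a chromokinesin that works with Prc1, was at 150 and 162 TPM in mutants and 119 and 121 TPM in controls. *Kif14*, a midbody motor that binds citron kinase, was at 138 and 127 TPM in mutants and 103 and 132 TPM in controls. In TPM the ranges of these 3 genes overlapped. In CPM per kilobase they did not, with 73.0 to 88.7 for *Kif4*, 48.5 to 63.0 for *Kif20a* and 37.7 to 43.6 for *Kif14*. The microtubule depolymerase gene *Kif2c* had 60.2 to 84.2 TPM, the chromokinesin gene *Kif22* 55.8 to 81.4 TPM, the depolymerase gene *Kif2a* 18.2 to 21.0 TPM and the plus-end motor gene *Kif15* 9.04 to 18.4 TPM over the 4 libraries. *Kif18b*, which acts on astral microtubules, was lowest of the detected spindle genes at 1.19 and 0.71 TPM in mutants and 0.20 and 0.47 TPM in controls.

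Among transport genes *Kif3a* and *Kif1b* were highest in TPM. *Kif3a*, a kinesin-2 motor, was at 147 and 148 TPM in mutants and 129 and 153 TPM in controls. Its place depended on the length used, since it was 4th of all kinesins in TPM and 10th per kilobase of the longest transcript. *Kif13b*, a motor for membrane cargo, was at 16.2 and 17.9 TPM in mutants and 18.2 and 19.2 TPM in controls. *Kif16b*, a motor of early endosomes, had 11.7 to 13.8 TPM and *Kif21a*, best known from axons, 7.95 to 9.57 TPM. The brain kinesin *Kif1a* had 21 and 0 counts in mutants and 4 and 0 counts in controls, and *Kif3c*, *Kif26a*, *Kif6* and *Kif19a* were likewise too low for the test, at no more than 17 counts in a library. *Kif1c* and *Kif26b* were read at about 1 CPM in mutant 1 and control 2 only, with 1.03 and 0.263 CPM in mutants and 0.0805 and 1.03 CPM in controls for *Kif1c*, and 1.17 and 0.0751 CPM in mutants and 0.0403 and 1.11 CPM in controls for *Kif26b*.

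Mutant and control oocytes were compared to ask which kinesin transcripts differ with the genotype. One gene of the 30 tested rose and 0 fell at an adjusted p under 0.05 (edgeR quasi-likelihood test, Benjamini-Hochberg over all 15493 genes tested); over all genes tested 3.75% passed, 1.77% higher and 1.98% lower in mutants. At an unadjusted p under 0.05 there were 6 kinesins, against 23% of all genes tested. The log2 fold change was positive for 16 and negative for 14, with a median of 0.06, against 0.05 over all genes tested. Of the 30, the mutant and control libraries did not overlap for 16, 12 of them higher and 4 lower in mutants, against 54.6% of all genes tested, 28.8% higher and 25.7% lower. DESeq2 called 4 kinesins, *Kif5c*, *Kif1b*, *Kif17* and *Kif11*, where it called 11.6% of all genes, and the fit without a filter on low counts called *Kif5c*, *Kif1b* and *Kif17*, where 5.01% of all genes passed. Leaving out 1 library gave 4 calls without mutant 1, where 10.2% of all genes passed, and 0 calls without mutant 2, control 1 or control 2, where 6.02%, 0.126% and 0.155% passed.

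The gene that rose was *Kif5c* (chr2:49619298-49774778, plus strand, GRCm38), a heavy chain of kinesin-1 best known from neurons. It had 5174 and 5087 counts in mutants 1 and 2 and 2629 and 2511 counts in controls 1 and 2. On the library-scaled level this was 184 and 191 CPM in mutants, a mean of 187 ± 5.20, and 106 and 99.7 CPM in controls, a mean of 103 ± 4.40 (SD, n = 2 each). Both mutant libraries stood well above both control libraries, and members of a group differed little. The fold was 1.82 and the log2 fold change 0.87 (SE 0.138, edgeR adjusted p = 0.0310). In the deposited TPM the values were 40.2 and 40.7 in mutants and 19.3 and 20.4 in controls, and with RSEM expected counts, where 3.89% of all genes passed, the log2 fold change was 0.86 (edgeR adjusted p = 0.0274). The gene overlaps the predicted gene *Gm13525* on the same strand, and the matrix held 1.155 counts per RSEM expected count. Without control 1, control 2 or mutant 2 the adjusted p was 0.267, 0.294 or 0.0568, at a log2 fold change of the same sign. The cumulus and leukocyte marker sums were also higher in both mutants, though the number of cumulus markers above 1 TPM overlapped between the groups. The part of either cell type in the *Kif5c* difference was not tested.

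**Figure D3:**
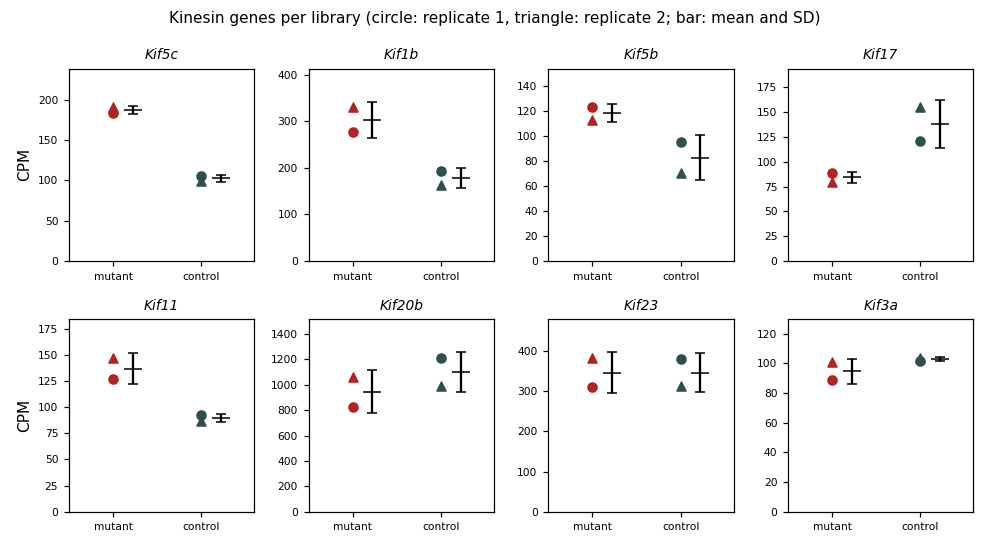
CPM per library of 8 kinesin genes in mutant (red, left) and control (dark, right) oocytes, with the mean and SD beside the points (n = 2 each) and axes that start at 0. Kif5c, Kif1b, Kif5b and Kif11 lie higher in both mutant libraries, Kif17 lies lower in both, and the groups overlap for Kif20b and Kif23.

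The other kinesin-1 heavy chain in these oocytes, *Kif5b*, which serves as the general cargo motor of most cells, was at 123 and 113 CPM in mutants and 95.5 and 70.3 CPM in controls. The groups did not overlap, and the fold of 1.43 did not pass (log2 fold change 0.51, SE 0.188, edgeR adjusted p = 0.170). The ratio of *Kif5c* to *Kif5b* per kilobase was 1.31 and 1.48 in mutants and 0.975 and 1.25 in controls. In TPM it was 0.615 and 0.657 in mutants and 0.508 and 0.508 in controls, so which heavy chain was the more abundant depended on the scale. *Kif5a*, the remaining heavy chain gene, was at 0 counts. The light chain gene *Klc1* was low, at 6.64 and 6.95 CPM in mutants and 5.80 and 6.67 CPM in controls, and the ratio of *Kif5c* to *Klc1* per kilobase was 10.1 and 10.04 in mutants and 6.67 and 5.46 in controls. In TPM that ratio was 5.71 and 4.70 in mutants and 2.17 and 1.94 in controls. Since *Kif5c* was the gene that passed, its higher ratio to *Klc1* in mutants is a description and no further result. The log2 fold change of *Klc1* was 0.12, and -0.30 with RSEM expected counts.

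*Kif1b* (chr4:149176319-149307693, minus strand), a motor for mitochondria and synaptic vesicle precursors, was at 276 and 331 CPM in mutants, a mean of 304 ± 38.6, and at 193 and 163 CPM in controls, a mean of 178 ± 21.2 (SD, n = 2 each). Its fold of 1.71 missed the threshold (log2 fold change 0.77, SE 0.167, edgeR adjusted p = 0.0602). *Kif13a*, a motor for Golgi-derived vesicles, was at 5.01 and 9.17 CPM in mutants and 2.54 and 2.70 CPM in controls, a fold of 2.70 that did not pass (log2 fold change 1.43, SE 0.428, edgeR adjusted p = 0.112). *Kif21b* was at 4.76 and 7.17 CPM in mutants and 1.53 and 4.37 CPM in controls. For all 3 genes the mutant libraries were above the control libraries, and for *Kif21b* control 2 came close to mutant 1.

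*Kif17* (chr4:138250435-138301967, plus strand), a kinesin-2 that carries receptors into dendrites, went the other way. It was at 88.3 and 79.9 CPM in mutants, a mean of 84.1 ± 5.93, and at 121 and 155 CPM in controls, a mean of 138 ± 24.4 (SD, n = 2 each), 1.64-fold lower in mutants. The test was not passed (log2 fold change -0.71, SE 0.175, edgeR adjusted p = 0.0743). The matrix counts of *Kif17* were 1.66 times the RSEM expected counts, and the gene overlaps *Sh2d5* on the same strand, so the count is uncertain.

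None of the kinesin-2 genes passed in the main edgeR fit. *Kif17* alone of them was called by DESeq2 and by the edgeR fit without a filter on low counts. *Kif3a* was at 88.6 and 101 CPM in mutants and 102 and 104 CPM in controls (log2 fold change -0.12, SE 0.147, edgeR adjusted p = 0.686), and its groups overlapped in TPM. *Kif3b*, its partner, was at 19.0 and 21.5 CPM in mutants and 14.1 and 14.0 CPM in controls (log2 fold change 0.53, SE 0.222, edgeR adjusted p = 0.222). *Kif3a* outnumbered *Kif3b* per kilobase 8.32 and 8.34 times in mutants and 12.9 and 13.1 times in controls. In TPM, where the length of *Kif3a* was under 50% of its longest transcript, the ratios were 25.7 and 23.8 in mutants and 37.8 and 40.2 in controls. The adaptor gene *Kifap3* was low and uneven, at 1.74 and 0.676 CPM in mutants and 1.09 and 2.22 CPM in controls, and the per-kilobase ratio of *Kif3a* to *Kifap3* was 64.7 and 189 in mutants and 119 and 59.2 in controls, and in TPM 194 and 527 in mutants and 359 and 196 in controls. RNA levels say nothing of how many complete motors were present.

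Of the 13 transport and neuronal kinesins tested, 1 passed, 5 had an unadjusted p under 0.05, and 9 had groups that did not overlap, 6 higher and 3 lower in mutants. Over all genes tested 3.75% passed, 23% had an unadjusted p under 0.05 and 54.6% did not overlap, 28.8% higher and 25.7% lower. The median log2 fold change was 0.22, against 0.05 over all genes tested, with 8 positive and 5 negative. This median is the value of *Kif1c*, a gene with 29 and 7 counts in mutants and 2 and 26 counts in controls (SE 1.21). It is therefore an uncertain summary of the class. Their summed level was 886 and 967 CPM in mutants and 744 and 726 CPM in controls. Without *Kif1b* and *Kif5c* the sum was 426 and 445 CPM in mutants and 446 and 463 CPM in controls, and in TPM 290.1 and 289 in mutants and 244 and 286 in controls. These 2 genes were picked after their values were seen, so the sums without them are a description.

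Of the 12 spindle kinesins tested 0 passed in either direction with edgeR, where 3.75% of all genes tested passed. An unadjusted p under 0.05 was found for 1 of the 12, against 23% of all genes tested. DESeq2 called 1 of the 12, *Kif11*, where it called 11.6% of all genes. The median log2 fold change was -0.00048 (range -0.33 to 1.35), with 6 positive and 6 negative, and the summed level was 2720 and 3258 CPM in mutants and 3341 and 2945 CPM in controls, which overlapped. Groups that did not overlap were found for 5 of the 12, 5 higher and 0 lower in mutants. Over all genes tested the share was 54.6%, 28.8% higher and 25.7% lower. The 5 spindle genes were *Kif11*, *Kif2c*, *Kif4*, *Kif15* and *Kif18b*. *Kif11* (chr19:37376403-37421859, plus strand), the motor that pushes spindle poles apart, was at 126 and 147 CPM in mutants, a mean of 137 ± 14.6, and at 92.7 and 87.0 CPM in controls, a mean of 89.8 ± 3.98 (SD, n = 2 each). Its fold was 1.52 (log2 fold change 0.61, SE 0.152, edgeR adjusted p = 0.0771).

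For *Kif20b*, *Kif23*, *Kif18a*, *Kif14*, *Kif20a* and *Kif22* the mutant and control libraries overlapped in CPM, while in TPM *Kif20b* was lower in both mutant libraries. *Kif20b* was at 824 and 1062 CPM in mutants and 1211 and 987 CPM in controls (log2 fold change -0.22, SE 0.194, edgeR adjusted p = 0.552). *Kif23* was at 310 and 383 CPM in mutants and 380 and 312 CPM in controls (log2 fold change 0.0015, SE 0.176, edgeR adjusted p = 0.996). *Kif18a* was at 241 and 332 CPM in mutants and 423 and 297 CPM in controls (log2 fold change -0.33, SE 0.232, edgeR adjusted p = 0.453). In each of these genes 1 library of each group was high and the other low. *Kif14* was at 363 and 345 CPM in mutants and 337 and 390 CPM in controls, *Kif20a* at 178 and 232 CPM in mutants and 217 and 226 CPM in controls, and *Kif22* at 76.2 and 93.0 CPM in mutants and 75.6 and 93.9 CPM in controls. *Kif20a* had 0.807 matrix counts per RSEM expected count and overlaps *Cdc23* on the other strand.

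*Kif4* was at 403 and 442 CPM in mutants and 394 and 364 CPM in controls (log2 fold change 0.16, SE 0.143, edgeR adjusted p = 0.568), and *Kif2c* at 121 and 137 CPM in mutants and 115 and 115 CPM in controls. *Kif15*, which can share the work of Kif11, was at 15.4 and 19.3 CPM in mutants and 15.0 and 10.4 CPM in controls (log2 fold change 0.45, SE 0.286, edgeR adjusted p = 0.399). *Kif18b* was at 2.27 and 1.50 CPM in mutants and 0.483 and 0.992 CPM in controls (log2 fold change 1.35, SE 0.633, edgeR adjusted p = 0.263). *Kif2a* was at 58.9 and 64.5 CPM in mutants and 79.6 and 61.9 CPM in controls. That none of these passed does not show that the levels were equal.

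**Figure D4:**
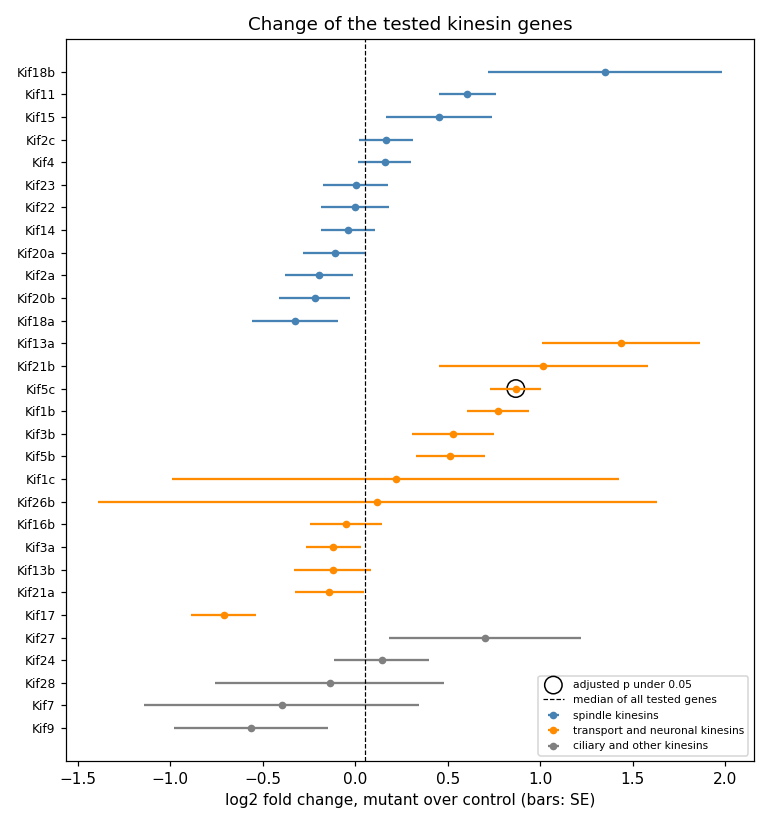
Log2 fold change, mutant over control, of the 30 tested kinesin genes with its SE, by class; the dashed line is the median of all genes tested, 0.05, and the ring marks an adjusted p under 0.05. The ring surrounds Kif5c alone, and the spindle genes lie between -0.33 and 1.35.

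Among the 5 tested ciliary and other kinesins 0 passed with edgeR, 0 had an unadjusted p under 0.05 and DESeq2 called 0. The shares over all genes were 3.75%, 23% and 11.6%, in that order. *Kif24*, a depolymerase that holds back cilia at the centriole, was the most abundant at 25.3 and 25.7 CPM in mutants and 18.1 and 28.1 CPM in controls (log2 fold change 0.14, SE 0.259, edgeR adjusted p = 0.796). *Kif9*, a motor of motile cilia and sperm tails, was at 4.55 and 4.13 CPM in mutants and 4.47 and 8.37 CPM in controls (log2 fold change -0.57, SE 0.417, edgeR adjusted p = 0.473). *Kif27* was at 3.98 and 1.99 CPM in mutants and 1.73 and 1.94 CPM in controls. The counts of *Kif28* were 9.83 times the RSEM expected counts and *Kif7* had none in RSEM, and these genes overlap *Ahctf1* and *Ticrr*, so their values are uncertain. Both stay among the 30 tested, and *Kif7* is 1 of the 4 counted as lower in both mutants.

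The deposited gene length is a mean over transcripts weighted by their estimated abundance, and it was far below the longest coding transcript for several of the most abundant kinesins. For *Kif20b* it was 35.4% to 43.0% of the longest transcript (5564 bases) over the 4 libraries, for *Kif23* 37.5% to 41.1% (3398 bases), for *Kif3a* 39.8% to 43.2% (3161 bases) and for *Kif1b* 29.5% to 36.9% (10233 bases). In 7 of the 19 genes with a mean of at least 10 TPM it stayed under 50% in every library. *Kif11* was at 4819 bases in all 4 libraries, its longest transcript, and *Kif5c* at 6856 bases, again the longest, in 3 libraries and at 6601 bases in control 2. For *Kif1b* the mean length was 3399 and 3781 bases in mutants and 3437 and 3017 bases in controls, so mutant 1 lay below control 1. No values per transcript were used, so which transcripts make up these means is not shown, and TPM of the genes with short means is raised against the per-kilobase scale.

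**Figure D5:**
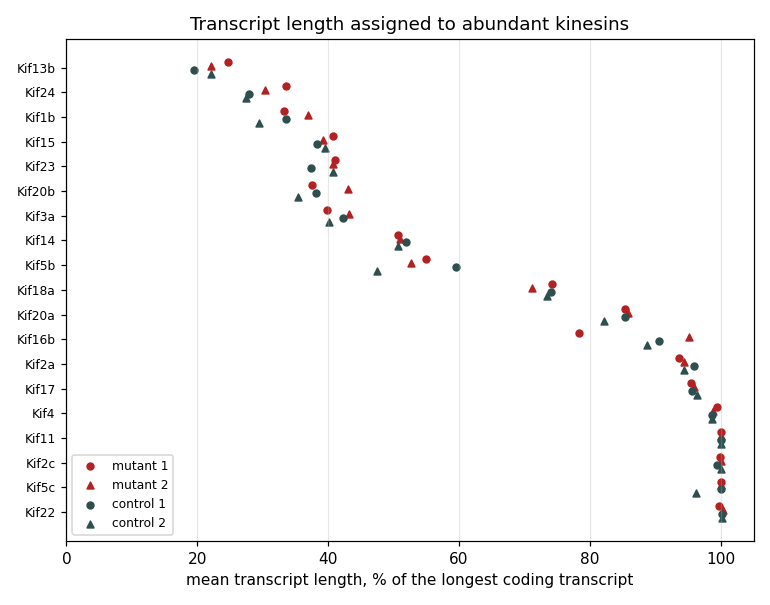
Mean transcript length of each kinesin gene with a mean of at least 10 TPM, as a percent of its longest coding transcript in GENCODE M21, with 1 point per library (red mutant, dark control). Kif11, Kif22 and Kif2c lie near 100%, and Kif20b, Kif23, Kif3a and Kif1b lie under 50% in all 4 libraries.

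Kinesin genes with other symbols added 6 genes, of which 4 were tested and 1 rose, where 1.77% of all genes tested rose. *Stard9*, a kinesin of centriolar material whose protein keeps mitotic spindle poles together, had 51 and 39 counts in mutants and 2 and 2 counts in controls, or 1.81 and 1.46 CPM in mutants and 0.0805 and 0.0794 CPM in controls. The ratio of the summed levels was 20.5 (exact 95% counting interval 7.75 to 77.05) and the log2 fold change 4.28 (SE 0.761, edgeR adjusted p = 0.0401), and with RSEM expected counts the edgeR adjusted p was 0.0972. Without control 1, control 2 or mutant 2 it was 0.333, 0.324 or 0.0554. Cumulus and leukocyte marker sums were higher in both mutants, and their part in the *Stard9* difference was not tested. *Cenpe*, the kinetochore motor, stood beside *Kif20b* in level per kilobase but not in TPM. All 6 genes of this list summed to 314 and 374 TPM in mutants and 269 and 242 TPM in controls, below *Kif20b* alone. *Cenpe* was at 1461 and 1757 CPM in mutants and 1520 and 1225 CPM in controls (log2 fold change 0.23, edgeR adjusted p = 0.518). *Kifc1*, a minus-end motor of spindle poles, was at 2.70 and 2.62 TPM in mutants and 1.72 and 2.06 TPM in controls (log2 fold change 0.23, edgeR adjusted p = 0.792).

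The genes of kinesin partners were read beside their motors. Of 20 light chains, adaptors and cargo links, 16 were tested and 0 passed in the main edgeR fit, with 3 at an unadjusted p under 0.05. Over all genes these shares were 3.75% and 23%, and DESeq2 called 11.6%. The median log2 fold change of the list was 0.24. *Rhot1*, which links kinesin-1 to mitochondria, was at 438 and 481 CPM in mutants and 298 and 318 CPM in controls (log2 fold change 0.58, SE 0.142, edgeR adjusted p = 0.0745), and DESeq2 called it alone of the 16 (adjusted p = 0.00532). *Arl8b*, which couples lysosomes to kinesin-1, was at 177 and 186 CPM in mutants and 209 and 151 CPM in controls (log2 fold change 0.01, edgeR adjusted p = 0.983).

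Of 20 spindle partners all were tested and 0 passed in the main edgeR fit, with 6 at an unadjusted p under 0.05. Among all genes tested 3.75% passed and 23% had an unadjusted p under 0.05. DESeq2 called *Cit* (adjusted p = 0.00281) and *Birc5* (adjusted p = 0.0352), where it called 11.6% of all genes. There were 8 positive and 12 negative log2 fold changes and a median of -0.09. *Birc5*, of the chromosomal passenger complex, was at 258 and 182 CPM in mutants and 320 and 334 CPM in controls (log2 fold change -0.57, edgeR adjusted p = 0.144). *Cit*, the partner of Kif14, was at 320 and 363 CPM in mutants and 495 and 544 CPM in controls (log2 fold change -0.61, edgeR adjusted p = 0.0747). *Racgap1*, the partner of Kif23 in centralspindlin, was at 116 and 134 CPM in mutants and 164 and 179 CPM in controls (log2 fold change -0.45, edgeR adjusted p = 0.138). The per-kilobase ratio of *Kif23* to *Racgap1* was 2.39 and 2.57 in mutants and 2.08 and 1.56 in controls, and in TPM 2.05 and 2.14 in mutants and 1.98 and 1.46 in controls. *Prc1*, the midzone bundler bound by Kif4, was at 574 and 671 CPM in mutants and 775 and 690 CPM in controls (log2 fold change -0.23, edgeR adjusted p = 0.433), and *Tpx2*, which binds Kif11 to spindle microtubules, at 466 and 569 CPM in mutants and 665 and 553 CPM in controls.

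Dynein, the motor that walks the other way, and its cofactor dynactin were represented by 29 genes, of which 28 were tested, 1 rose and 1 fell. Among all genes tested 3.75% passed, 1.77% higher and 1.98% lower in mutants. *Dync1i2*, a cytoplasmic dynein intermediate chain, fell to 155 and 198 CPM in mutants, against 387 and 357 CPM in controls, 2.11-fold lower (log2 fold change -1.08, SE 0.170, edgeR adjusted p = 0.0307). *Actr1b*, a dynactin subunit, had 87 and 75 counts in mutants and 1 and 2 counts in controls, with a ratio of 49.3 (exact 95% counting interval 16.6 to 242; log2 fold change 5.52, SE 0.711, edgeR adjusted p = 0.0161). Both genes also passed with RSEM expected counts. Both calls were lost without control 1 or control 2, with edgeR adjusted p of 0.284 and 0.258 for *Dync1i2* and 0.244 and 0.212 for *Actr1b*. Cumulus and leukocyte marker sums were higher in both mutants, and their part in the *Actr1b* difference was not tested. The median log2 fold change of the dynein and dynactin list was 0.07.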

How the data were processed

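RNA of 4 mouse oocyte libraries was measured, grouped by their titles into 2 mutant and 2 control libraries. The deposited matrix held raw whole-number counts. They also deposited a table per library that, per the file headers, has the form of RSEM gene results with expected counts, TPM, FPKM and lengths in bases. FPKM was deposited too and was not tested. The submitters' processing notes list cutadapt 1.16, STAR, RSEM and mm10, while roles, the matrix's counter and any use of strand were not given there. Overlapping genes are therefore uncertain.

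The matrix counts were fitted in R 4.3.3 by the quasi-likelihood test of edgeR 4.0.16 with genotype alone in the model, after TMM scaling and filterByExpr, with Benjamini-Hochberg adjustment over 15493 genes and a threshold of 0.05. CPM is on TMM-scaled library sizes, and an SE is the log2 fold change over the root of its F. The fit was tested on simulated counts. Alternatives were DESeq2 1.42.0, other scalings, no filter, a replicate block, each library left out, and RSEM expected counts rounded to whole numbers. CPM per kilobase of the longest coding transcript was added after the data were seen. Amplified reads are not independent molecules, so intervals and limits cover counting error only.

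All 38 kinesin IDs matched GENCODE M21 (GRCm38, the assembly of mm10) without their version number, 36 of them with it. Promoter windows are RefSeq's on GRCm38.p6. The members, classes and lists were chosen with earlier results of these data known. The named genes were every kinesin past the threshold, the 6 spindle, 6 transport and 2 other kinesins with the highest mean TPM, and from each other list up to 4 genes past the threshold or else the 2 with the highest TPM. *Kif2a*, *Kif2c*, *Kif3b*, *Kif11*, *Kif13a*, *Kif15*, *Kif18b*, *Kif22*, *Cenpe*, *Cit*, *Kifap3*, *Kifc1*, *Klc1*, *Racgap1* and *Tpx2*, and the low or overlapping genes and single markers given by value, were named after their values were seen. Analyses of positions used Python 3.11.15.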

Additional observations from a re-analysis of the deposited data

How the results depend on the processing

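Genes past the threshold numbered 581, against 1942 with DESeq2, 1322 with no filter, 1213 with a replicate block and 22 (without control 1) to 1688 (without mutant 1) with a library left out, where a lone library is assumed to vary like the other group. Kinesins past it numbered 1, against 4 with DESeq2, 3 with no filter, 1 with the block and 0 to 4 with a library left out. Same-numbered libraries had deviations correlated at 0.166 over 15493 genes. With 2 libraries per group this is a single contrast with no spread to set it against. It cannot decide whether the numbers mark pairs. The transport median of 0.22 was 0.35 with DESeq2, 0.36 with no filter, 0.52 with the block, 0.43 with RSEM counts and 0.12 to 0.63 with a library left out; DESeq2 and no filter shifted the median of all genes by 0.102 and 0.110. The spindle median stayed between -0.09 and 0.12 with a library left out. The log2 fold change of *Kif5c* stayed between 0.78 and 0.92 and passed in 7 of 10 alternatives. Of 360 values of 36 named genes, 22 changed sign, 0 of them for a gene that had passed; the cause was not tested. These were *Kif23* (-0.0133 with RLE, -0.0155 with DESeq2, -0.00595 with no filter, -0.0257 with RSEM), *Kif14* (0.00978 with upper-quartile scaling), *Arl8b* (-0.00764 with RLE, -0.0101 with DESeq2, -0.00753 with RSEM), *Klc1* (-0.30 with RSEM) and *Kif22* (0.0498 with upper-quartile scaling, 0.00296 with RSEM), and with a library left out *Kif23* (-0.18 to 0.14), *Kif20a* (-0.32 to 0.0475), *Kif14* (-0.15 to 0.0203), *Kif24* (-0.15 to 0.44), *Arl8b* (-0.25 to 0.25), *Kifap3* (-1.30 to 0.10) and *Kif22* (-0.16 to 0.12). Calls split 47.2% higher, against 54.1% with upper-quartile scaling.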
